A study of Mus musculus with 26 samples.

Results

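Nuclear receptors are ligand-regulated transcription factors, and the 43 genes described here are the listed members of that family other than the NR4A group to which Nur77 itself belongs. They were chosen by name, out of 49997 RefSeq genes with coordinates. ChIP-seq was done for 3 targets: the HA tag carried by Nur77, RNA polymerase II, abbreviated Pol II, and H3K27ac, an acetylated histone found at active promoters and enhancers. The cells were RAW264.7, an established line of mouse macrophages. Both derivatives used were stable lines with a doxycycline-inducible gene, HA-Nur77 in one and GFP in the other, and all of the cells received 50 ng/ml doxycycline for 18 h. For HA, the proteins were first crosslinked with the agent DSG at 2 mM and then with 1% formaldehyde, and for Pol II and H3K27ac with 1% formaldehyde alone. LPS, a bacterial cell wall product that activates macrophages, was given at 500 ng/ml for 1 h, and the untreated cells had none. HA libraries came from Nur77 cells with LPS and Nur77 cells without it (n = 3 each). Pol II and H3K27ac libraries came from Nur77 cells with LPS, Nur77 cells untreated, GFP cells with LPS and GFP cells untreated (n = 2 each). HA ChIP of GFP cells was not analysed here, so the signal that the HA antibody gives without HA-Nur77 is not known. The labels do not say whether replicates were separate cultures, or whether a line is 1 clone, so p-values measure the spread between these libraries, which may be technical, and a difference between the lines cannot be told apart from a difference between isolates.

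Members of this family bind DNA as homodimers, as monomers or as heterodimers with a retinoid X receptor, and switch between co-repressor and co-activator complexes when a ligand binds. In macrophages the liver X receptors and PPAR-gamma are known for control of cholesterol and lipid handling, and the glucocorticoid receptor for restraint of inflammatory genes. Nur77 is an orphan receptor of the NR4A group that is itself induced by inflammatory signals and is known to bind as a monomer to the sequence AAAGGTCA, called the NBRE. Its core AGGTCA is the half-site that most nuclear receptors recognise.

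Depth was 6.41 to 18.2 M mapped tags for HA, 11.9 to 23.1 M for Pol II and 22.3 to 28.4 M for H3K27ac. HA peaks were 342 and 427 bp wide in the replicate 3 libraries, against 826 to 1017 bp in the other 4. Of the Pol II libraries, replicate 1 of the untreated Nur77 cells has a recorded fragment length of 1550 bp, and the other 7 have 174 to 318 bp. Of 10 macrophage marker genes, Pol II peaks lay over 9 and H3K27ac peaks over 10 in every library (Mrc1 lacked Pol II in some), and their summed signal was 14875 to 29068 tags for Pol II and 13192 to 20732 tags for H3K27ac. Of 9 markers of other cell types, 7 had no peak of either target in any library (Alb, Cd3e, Col1a1, Epcam, Ins2, Krt5 and Myh6), Pecam1 had one in some and Gfap in every library, and the sum was 60.2 to 268 tags for Pol II and 84.0 to 191 tags for H3K27ac.

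All values below are normalized tags, scaled by the authors' software to 10 M mapped tags, summed over the peaks that overlap the gene's span plus 1 kb, and divided by a library scaling factor. A value of 0 means that no peak was called, not that no tag was there. Peaks of Pol II and H3K27ac are stretches stitched together by the peak caller, so a sum also moves with the length called. A sum may come from peaks away from the gene's start. Each library pools many cells, and more cells carrying a mark cannot be told apart from more of it per cell. A member is called changed where limma's adjusted p over all genes with a peak in every library of that target was under 0.05.

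Peaks over these genes were more common than over all 49997 RefSeq genes with coordinates, coding or not. HA peaks were present in all 6 libraries over 20 members (46.5%, against 13.8% of all genes), in some libraries over 9 and in none over 14. Pol II was present in all 8 libraries over 23 members (53.5%, against 31.2%), in some over 9 and in none over 11. H3K27ac was present in all 8 over 24 members (55.8%, against 33.1%), in some over 6 and in none over 13. These shares are descriptions, and gene length, which bears on the chance of a peak, was not matched. Nor was gene type, so the difference may be one between coding genes and other entries. 9 members had no peak of any target in any library: Nr2e1, Nr2e3, Nr2f2, Nr5a1, Nr0b1, Rxrg, Rorb, Pgr and Hnf4g. Most of these are known from brain, retina, adrenal, gonad or gut rather than from macrophages. Nr5a2 and Esr2 had Pol II only, and Thrb H3K27ac only, in 1 to 5 libraries. Esr2 had Pol II in 3 libraries at 7.10 to 10.4 tags, Ppara had Pol II in the 2 untreated GFP libraries and 1 HA peak, and Nr2f1 had at most 40.8 tags of Pol II and 24.9 of H3K27ac.

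**Figure D1:**
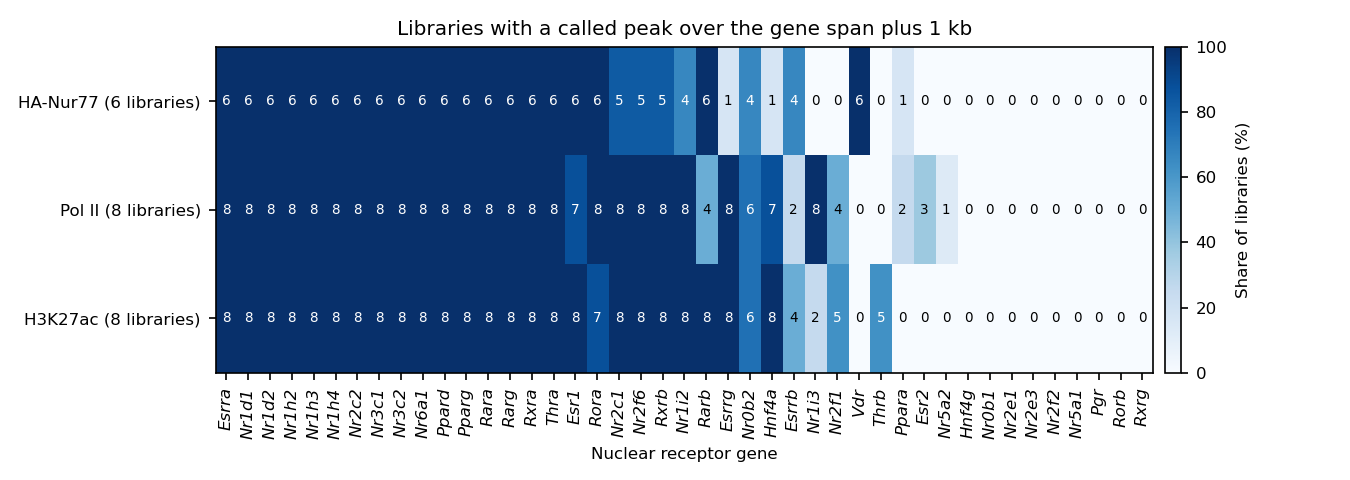
Number of libraries in which a peak was called over each of the 43 nuclear receptor genes (columns) for HA-Nur77, Pol II and H3K27ac (rows). The shade gives the share of libraries in percent. 20, 23 and 24 genes have a peak in every library, and Vdr stands out with HA in all 6 libraries and neither Pol II nor H3K27ac in any.

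Where a peak lay in every library, the density of signal differed widely between members. Per kb of called peak, Pol II ran from 19.5 tags over Esrrg to 93.5 tags over Nr2c1, H3K27ac from 17.3 tags over Nr3c2 to 114 tags over Rxrb, and HA from 26.8 tags over Thra to 127 tags over Nr6a1. The widest acetylated members were Ppard, with 19.9 kb called on average, and Nr6a1 with 17.9 kb. Several of the highest Pol II sums include neighbours: the Pol II stretch over Rxrb also covers Ring1, H2-Ke6 and Slc39a7, that over Esrra covers Prdx5 and Trmt112, that over Nr2f6 covers Use1, Ocel1 and Ushbp1, and those over Nr1h3 reach Acp2 and Madd. Rxrb had 1368 and 1630.4 tags after LPS against 1608 and 1624 untreated in Nur77 cells, and 1415 and 1520.0 after LPS against 1739.6 and 1550.1 untreated in GFP cells, and Nr1h3 had 999 and 1162 tags after LPS against 1019 and 986 untreated in Nur77 cells. The GFP values were 1251 and 1278 after LPS against 1329 and 1081 untreated. The groups of Nr1h3 overlapped in both lines and those of Rxrb in Nur77 cells, while both Rxrb LPS libraries of GFP cells lay below the untreated ones, and neither gene was called in either line.

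Promoter sequences of 39 members, 60 starts in all, were matched in RefSeq (GRCm38.p6, 250 bases before to 50 after each start). The half-site AGGTCA, on either strand, was in 12 of these 60 promoters (20%), against 16.3% of 32851 RefSeq promoters. The full NBRE AAAGGTCA, also searched on both strands and holding the half-site within it, was in 2 of 60, over Rxra and Rxrg, against 1.51% of all promoters, and no HA peak lay over either. Of the 60, 2 (3.33%) were overlapped by an HA region called in all 6 libraries, those of Nr1h2 and Nr1d2, against 4.93% of all promoters, and peaks of all 6 libraries reached into the window of Nr1h2 alone. The 3 promoters printed here are the one with HA in every library (Nr1h2), the one beside an HA region called only after LPS (Nr1d1) and one with a half-site whose window HA peaks of 3 libraries overlap (Nr1d2, capitals mark AGGTCA). They run 5′ to 3′ on the minus strand, at chr7:44553916-44554215, chr11:98775328-98775627 and chr14:18239057-18239356.
Nr1h2: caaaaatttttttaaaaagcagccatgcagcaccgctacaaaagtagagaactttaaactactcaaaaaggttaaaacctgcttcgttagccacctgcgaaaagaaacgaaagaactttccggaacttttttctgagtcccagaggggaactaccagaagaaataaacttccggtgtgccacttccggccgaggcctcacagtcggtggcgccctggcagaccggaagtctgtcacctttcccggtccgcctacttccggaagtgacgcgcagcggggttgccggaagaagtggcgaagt
Nr1d1: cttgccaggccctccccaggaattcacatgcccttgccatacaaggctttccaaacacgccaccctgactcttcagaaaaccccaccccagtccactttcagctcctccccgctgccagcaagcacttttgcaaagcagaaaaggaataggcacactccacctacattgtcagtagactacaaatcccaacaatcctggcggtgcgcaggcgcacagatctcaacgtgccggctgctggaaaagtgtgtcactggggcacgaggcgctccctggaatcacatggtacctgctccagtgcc
Nr1d2: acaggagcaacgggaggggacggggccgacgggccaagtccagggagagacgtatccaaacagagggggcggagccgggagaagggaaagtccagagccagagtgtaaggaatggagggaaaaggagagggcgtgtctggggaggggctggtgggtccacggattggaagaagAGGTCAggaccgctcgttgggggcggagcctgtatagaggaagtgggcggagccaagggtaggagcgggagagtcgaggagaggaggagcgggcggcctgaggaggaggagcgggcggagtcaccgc
Neither motif is in the windows of Nr1h2 and Nr1d1, which says nothing of other letters that HA-Nur77 may bind. The half-site printed for Nr1d2 lies 77 bp before its start. That is past the end of the HA region at chr14:18238156-18239172, so no HA peak covered the half-site itself. Sequences of HA sites away from starts were not used here.

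After LPS, Pol II fell over 3 members in Nur77 cells and rose over none of the 23 tested. Over all genes tested 13.6% fell and 12.8% rose, 26.5% in all. In GFP cells it fell over 4 and rose over 1 of 23. Over all genes 6.91% fell and 8.14% rose, 15% in all. Pparg, Nr3c1 and Nr1h4 fell in both lines, and 20 of 23 members had the same sign in both. The share of all genes with the same sign was not worked out, so that count has no baseline. The median log2 change of the tested members was -0.34 in Nur77 cells and -0.28 in GFP cells, with medians of 0.00 and 0.01 over all genes. Replicate numbers were taken to pair the Pol II libraries from their correlation in these data, although the labels name no shared batch. With replicate number as a block 8 members were lower and 2 higher in Nur77 cells (40.2% of all genes called), and 6 lower and 3 higher in GFP cells (27.3%). With the block and without the library of long fragment length, an alternative chosen after seeing the data, 2 were called in Nur77 cells and 7 in GFP cells. The falls of Pparg and Nr3c1 in Nur77 cells were called whichever library was left out, and each of the 5 calls in GFP cells was lost without at least 1. Without the scaling factors the calls were 8 lower in Nur77 cells and 4 lower in GFP cells, with none higher. Of all 15624 genes tested, 3553 were then lower and 1039 higher in Nur77 cells, and 1267 lower and 926 higher in GFP cells.

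H3K27ac was called over 12 of 24 members in each line, a share near that of genes at large. In Nur77 cells it rose over 3 and fell over 9 of 24 members after LPS. Over all genes tested 29.8% rose and 28.2% fell, 58% in all. In GFP cells it rose over 6 and fell over 6, where 28.7% of all genes rose and 25.2% fell, 53.9% in all. Rarb, Rarg and Nr1h3 rose in both lines, and Esr1, Hnf4a, Nr1h4, Pparg and Rxra fell in both, with no member called in opposite directions. Without the scaling factors the median over all genes moved by -0.43 in Nur77 cells and by -0.40 in GFP cells on the log2 scale, and the split of members became 1 higher and 17 lower in Nur77 cells, and 2 higher and 15 lower in GFP cells. Of all 16565 genes tested, 1681 were then higher and 9519 lower in Nur77 cells, and 1859 higher and 9168 lower in GFP cells. Changes below are therefore relative to the median gene. Per kb of called peak 5 members were called in Nur77 cells and 9 in GFP cells, where the changes of Rarb were 0.96 and 0.87 and those of Hnf4a -0.63 and -0.72. Of the 12 calls made in each line, 5 were kept per kb in Nur77 cells and 7 in GFP cells. Another 3 of them changed sign in Nur77 cells and none in GFP cells. Weighted by the share of each peak inside the span plus 1 kb, 11 were kept in Nur77 cells and 8 in GFP cells. Among the 10 macrophage markers H3K27ac rose over 2 and fell over 3 in Nur77 cells and rose over 5 and fell over 3 in GFP cells, and the one tested marker of another cell type, Gfap, rose in both (0.56 ± 0.09, adjusted p = 0.0015 in Nur77 cells, 0.38 ± 0.09, adjusted p = 0.0084 in GFP cells). The part of these in the members' changes was not tested. With each library left out in turn, Rarb, Rarg, Esr1, Hnf4a, Pparg and Rxra stayed called in both lines and Nr1h3 in GFP cells, while the other H3K27ac calls of the LPS comparisons were lost without at least 1 library. HA over whole genes gave no call among 20 members tested, where limma called 2.41% of all genes, 1.77% higher and 0.638% lower, and 3 members had an unadjusted p under 0.05. With replicate number as a block, which was taken to pair the HA libraries, Rarb, Rora, Nr1d1 and Nr3c2 were higher and Nr6a1 lower (adjusted p from 0.0059 to 0.042), where 21.9% of all genes were called.

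**Figure D2:**
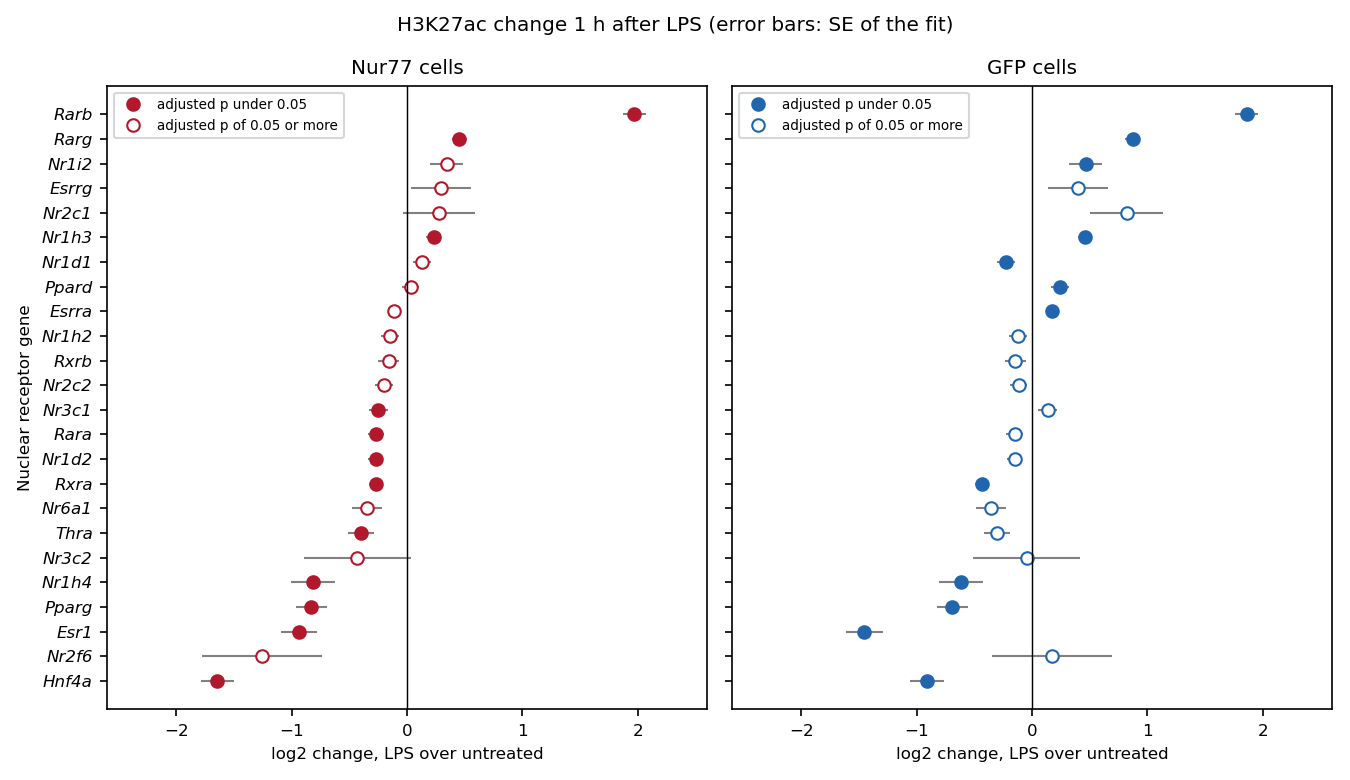
log2 change of H3K27ac 1 h after LPS over untreated for the 24 nuclear receptor genes tested, in Nur77 cells (left) and GFP cells (right), with the SE of the limma fit as error bars. Filled points passed an adjusted p of 0.05. Rarb lies highest in both lines, at 1.97 and 1.86, and Hnf4a, Esr1, Pparg and Nr1h4 lie on the lower side in both.

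Retinoic acid receptors are activated by retinoic acid and act with a retinoid X receptor. Rarb, the receptor gene that retinoic acid itself induces in many cells, showed the largest gain of H3K27ac among the members tested in both lines. Its H3K27ac sum was 159 and 152 tags after LPS against 38.0 and 39.9 untreated in Nur77 cells. GFP cells gave 161 and 152 after LPS against 40.0 and 44.6 untreated. The LPS libraries lay above every untreated library by a wide margin (log2 change 1.97 ± 0.10, adjusted p = 1.7e-05 in Nur77 cells, and 1.86 ± 0.10, adjusted p = 2.0e-05 in GFP cells). Nearly all of this signal, 96.9%, sat in a single stretch at chr14:16431222-16434793, at the 3′ end of Rarb, whose margin also comes within 1 kb of Top2b. Pol II over Rarb was called in the 4 LPS libraries alone, at 39.4 and 27.4 tags in Nur77 cells and 27.7 and 36.6 tags in GFP cells, and was listed at 0 in all 4 untreated libraries.

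An HA site lay in the same stretch, at chr14:16432929-16434011, in all 6 libraries. It had 72.3, 75.4 and 88.7 tags after LPS against 38.8, 25.5 and 41.3 untreated, with no overlap, and the rise was called (log2 change 1.16 ± 0.28, adjusted p = 0.045). The H3K27ac peaks over this site held 159 and 145 tags after LPS against 38.0 and 39.9 untreated in Nur77 cells. Values in GFP cells were 148 and 152 after LPS against 40.0 and 39.3 untreated. The acetylation at this site was at like levels in both lines, and the part of HA-Nur77 in it was not tested. The site lay 142006 bp from the nearest listed Rarb start.

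Rarg, the form known from skin, gained H3K27ac in both lines, with 1091 and 994 tags after LPS against 761 and 761 untreated in Nur77 cells. Those of GFP cells were 1058 and 1134 after LPS against 609 and 588 untreated. Its rise was called in Nur77 cells (log2 change 0.45 ± 0.07, adjusted p = 0.0011) and in GFP cells (0.87 ± 0.07, adjusted p = 7.5e-05). Of the signal, 50.1% sat in a stretch shared with Itgb7. Pol II was uneven between replicates, at 1507 and 503 tags after LPS against 466 and 335 untreated in Nur77 cells. GFP cells had 1874 and 1122 after LPS against 582 and 356 untreated. Of the Pol II sum, 34.7% lay in a stretch shared with Itgb7 that was called in 3 libraries. The share of Pol II inside the span plus 1 kb was 61.3% after LPS against 99.8% untreated in Nur77 cells, and 56.6% against 100% in GFP cells. Weighted by that share, the means were 616 after LPS against 400 untreated in Nur77 cells, and 848 against 469 in GFP cells. The rise in Pol II was not called as fitted (adjusted p = 0.17 in Nur77 cells and 0.091 in GFP cells) and was called with replicate number as a block (adjusted p = 0.022 in Nur77 cells and 0.01 in GFP cells). The HA site at chr15:102243147-102244163 had 71.7, 106 and 70.6 tags after LPS and 48.8, 57.1 and 47.8 untreated (log2 change 0.66 ± 0.27, adjusted p = 0.2, and 9.4e-04 with the block). Over this site H3K27ac held 421 and 432 tags after LPS against 315 and 332 untreated in Nur77 cells. The GFP values were 673 and 634 after LPS against 326 and 318 untreated.

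Rara moved the other way. Its H3K27ac sum was 694 and 725 tags after LPS against 847 and 867 untreated in Nur77 cells. GFP cells gave 712 and 653 after LPS against 797 and 721 untreated, and the fall was called in Nur77 cells (log2 change -0.27 ± 0.07, adjusted p = 0.015), while the difference between the lines in this response was not called. Called length fell with it, to 13.0 kb after LPS against 19.2 kb untreated in Nur77 cells, and per kb of called peak the sign turned to 0.07. Pol II over Rara was 435 and 383 tags after LPS against 637 and 593 untreated in Nur77 cells, and 501 and 428 after LPS against 694 and 537 untreated in GFP cells, lower after LPS in every library of both lines. This was called in Nur77 cells only with the block (log2 change -0.59 ± 0.18, adjusted p = 0.056, and 0.012 with the block).

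Rxra, the retinoid X receptor that pairs with many members, lost H3K27ac in both lines. The sums were 668 and 632 tags after LPS against 788 and 784 untreated in Nur77 cells. Values in GFP cells were 412 and 391 after LPS against 555 and 530.2 untreated. The change was -0.27 ± 0.06, adjusted p = 0.0063 in Nur77 cells and -0.43 ± 0.06, adjusted p = 9.1e-04 in GFP cells on the log2 scale, and per kb of called peak it was 0.15 in Nur77 cells. Its HA site at chr2:27687615-27688631 had 38.6, 37.2 and 47.4 tags after LPS and 38.2, 34.0 and 36.7 untreated, which overlap. Rxrb had no called change in Pol II or H3K27ac, and the nearest HA site in all 6 libraries lay 30850 bp away beside H2-K1.

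PPARs bind fatty acids and their derivatives. Pparg, known in macrophages for lipid uptake and for limiting inflammatory genes, fell in Pol II and H3K27ac in both lines. Of its Pol II sum, 68.1% lay inside the gene at chr6:115479275-115481847, the only Pol II stretch of Pparg called in all 8 libraries. No peak of either target lay over a listed Pparg start, so the fall is not one at a start. Pol II was 40.7 and 30.6 tags after LPS against 147 and 199 untreated in Nur77 cells, and 73.9 and 59.9 after LPS against 169 and 204 untreated in GFP cells, the largest called fall among members in Nur77 cells (log2 change -2.24 ± 0.26, adjusted p = 0.0024), and it was called in GFP cells too (-1.46 ± 0.26, adjusted p = 0.015). Called length shrank, to 0.931 kb after LPS against 5.05 kb untreated in Nur77 cells and 2.27 against 5.51 kb in GFP cells, and per kb the changes were -0.09 and -0.17. H3K27ac was 279 and 294 tags after LPS against 536 and 486 untreated in Nur77 cells. Those of GFP cells were 372 and 297 after LPS against 487 and 592 untreated, with no overlap within a line (log2 change -0.83 ± 0.13, adjusted p = 0.0019 in Nur77 cells, and -0.69 ± 0.13, adjusted p = 0.0046 in GFP cells). Called length was 7.98 kb after LPS against 15.0 kb untreated in Nur77 cells and 10.1 against 15.9 kb in GFP cells. Per kb the H3K27ac changes were -0.15 and -0.25, and neither was called.

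Of the 57 HA sites called in all 6 libraries within 50 kb of members, 5 lay near Pparg, as many as near Nr6a1. The strongest of them, at chr6:115343334-115344350 and 16529 bp from the gene, had 109, 82.5 and 117 tags after LPS and 229, 166 and 226 untreated. The groups did not overlap, and the fall missed the threshold (log2 change -1.004 ± 0.27, adjusted p = 0.063) except with the block (adjusted p = 1.6e-08). H3K27ac over that site was 216 and 204 tags after LPS against 434 and 429 untreated in Nur77 cells. GFP cells had 233 and 193 after LPS against 396 and 418 untreated. Pol II there was 94.9 and 110.0 tags after LPS against 314 and 316 untreated in Nur77 cells. The GFP values were 79.2 and 112 after LPS against 248 and 314 untreated. Both marks were lower after LPS in every library of each line. A further site inside the gene at chr6:115380505-115381521 was called in the 3 untreated libraries, at 42.3, 51.9 and 31.7 tags, and in none of the LPS libraries. The sites at chr6:115375079-115376095 (164, 101 and 130.4 tags after LPS, 150.5, 118 and 137 untreated) and chr6:115479981-115481029 (38.1, 42.7 and 25.9 after LPS, 54.1, 60.4 and 42.5 untreated) were not called as fitted, and the second was called lower with the block (adjusted p = 0.012).

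**Figure D3:**
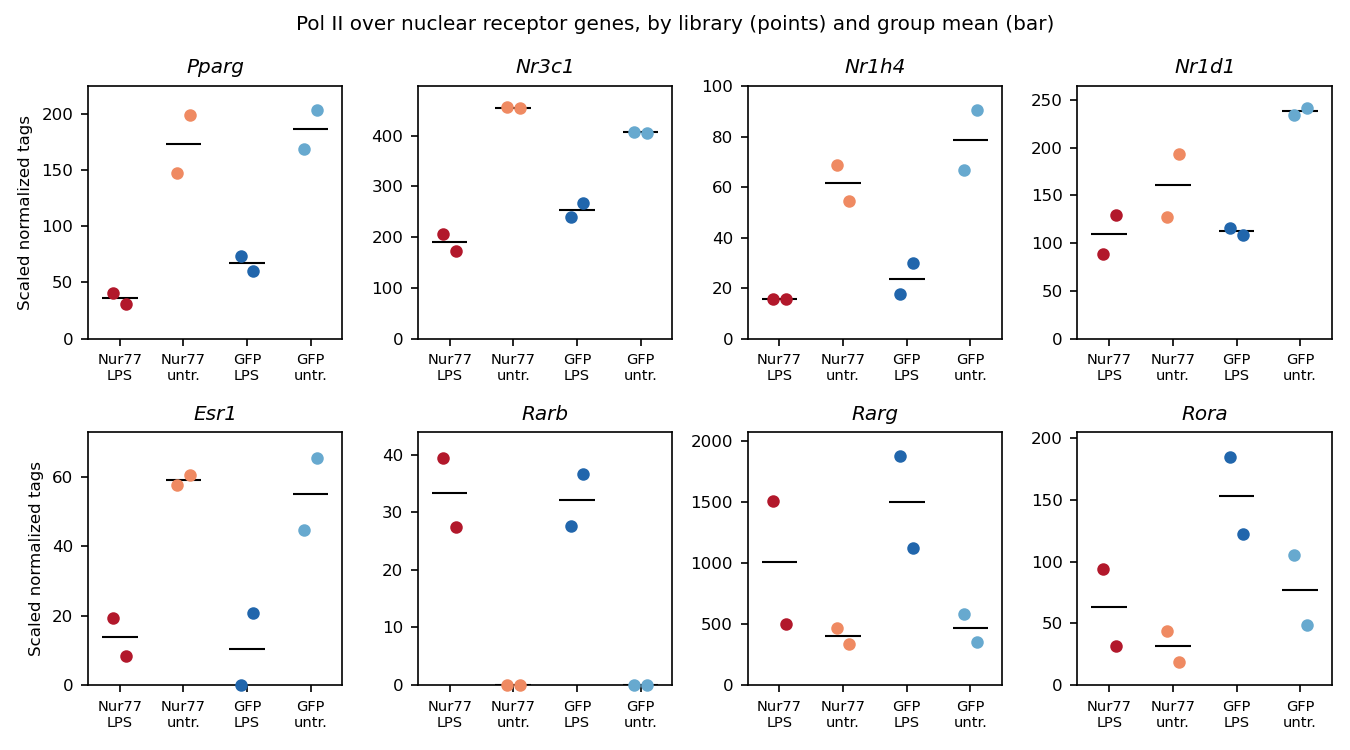
Pol II over 8 nuclear receptor genes in scaled normalized tags, with each library as a point and the mean of the 2 libraries as a bar, for Nur77 cells with LPS, Nur77 cells untreated, GFP cells with LPS and GFP cells untreated. Pparg, Nr3c1, Nr1h4 and Esr1 are lower after LPS in both lines, Rarb has a peak in the 4 LPS libraries alone, and the replicates of Rarg and Rora lie far apart.

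Ppard, a broadly expressed fatty acid receptor, behaved differently. Its H3K27ac rose in GFP cells (log2 change 0.24 ± 0.08, adjusted p = 0.032) and the change in Nur77 cells was 0.03 ± 0.08, adjusted p = 0.76. Without the scaling factors the sign in GFP cells turned to -0.16, and without peaks over input regions to -0.34. The HA site inside the gene at chr17:28256539-28257559 had 91.3, 85.1 and 111 tags after LPS and 87.0, 81.5 and 125 untreated, which overlap. A distal site 38700 bp away at chr17:28192365-28194054, whose closest coding gene is Zfp523, rose (log2 change 1.33 ± 0.31, adjusted p = 0.038), with 116, 116 and 101 tags after LPS and 33.5, 36.5 and 66.5 untreated. H3K27ac over the distal site was 616 and 477 tags after LPS against 222 and 203 untreated in Nur77 cells, and 634 and 536 after LPS against 176 and 188 untreated in GFP cells, higher after LPS in both lines. Another, at chr17:28223384-28224512 nearest to Def6, had 29.4, 21.7 and 31.5 tags after LPS and 53.5, 49.9 and 60.7 untreated, and its fall was called only with the block (log2 change -0.98 ± 0.26, adjusted p = 0.059, and 4.8e-05 with the block). Ppara had no H3K27ac peak.

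The liver X receptors sense oxysterols. Nr1h3, LXR-alpha, gained H3K27ac in both lines, with 1044 and 1043 tags after LPS against 869.8 and 911 untreated in Nur77 cells, and 1249 and 1189.6 after LPS against 846 and 929.9 untreated in GFP cells (log2 change 0.23 ± 0.06, adjusted p = 0.018 in Nur77 cells, and 0.46 ± 0.06, adjusted p = 0.001 in GFP cells). Part of the signal, 45.8%, lay in a stretch shared with Acp2, and weighted by the share of each peak inside the gene the changes were 0.07 and 0.11. Without peaks over input regions the sign turned in both lines, to -0.10 in Nur77 cells and -0.23 in GFP cells. Without the scaling factors the sign turned in Nur77 cells, to -0.20. An HA site at chr2:91196457-91197473 in the gene had 116, 117 and 119.8 tags after LPS and 125, 109.9 and 188 untreated, which overlap. Nr1h2, LXR-beta, had no called change in any of the 3 assays. Its promoter site at chr7:44553397-44554482 had 20.1, 21.5 and 19.7 tags after LPS and 21.7, 22.7 and 18.0 untreated, a log2 change of -0.02 ± 0.20, adjusted p = 0.97, and Pol II was 488 and 467 tags after LPS against 440.3 and 485 untreated in Nur77 cells. GFP cells gave 441 and 395 after LPS against 455 and 447 untreated. Its H3K27ac was 281 and 251 tags after LPS against 294 and 296 untreated in Nur77 cells. Values in GFP cells were 240.2 and 259 after LPS against 274 and 269.9 untreated. Both LPS libraries lay below both untreated ones in each line, which was not called (log2 change -0.15 ± 0.08, adjusted p = 0.13 in Nur77 cells, and -0.12 ± 0.08, adjusted p = 0.21 in GFP cells).

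Nr1h4, the bile acid receptor FXR, is known from liver and gut, and here carried low signal that fell. All of its Pol II lay at chr10:89452475-89454753, a stretch that reaches past the downstream end of the gene. Most of its H3K27ac lay at the same end, at chr10:89452465-89454705. No Pol II peak lay over the listed start at 89506658. Pol II was 15.6 and 15.8 tags after LPS against 68.6 and 54.4 untreated in Nur77 cells, and 17.6 and 30.0 after LPS against 66.9 and 90.7 untreated in GFP cells (log2 change -1.89 ± 0.35, adjusted p = 0.011 in Nur77 cells, and -1.72 ± 0.35, adjusted p = 0.024 in GFP cells). H3K27ac fell as well, mostly in a single stretch that held 92.3% of the sum, with 37.5 and 48.4 tags after LPS against 71.1 and 80.5 untreated in Nur77 cells, and 55.2 and 76.0 after LPS against 105 and 95.4 untreated in GFP cells (log2 change -0.81 ± 0.19, adjusted p = 0.0097 in Nur77 cells, and -0.62 ± 0.19, adjusted p = 0.03 in GFP cells). No library after LPS overlapped the untreated ones of its line in either assay. A pair of HA sites inside the gene, at chr10:89458430-89459446 and chr10:89464711-89465727, had neither H3K27ac nor Pol II in any library.

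Nr1i2 and Nr1i3 encode the xenobiotic receptors PXR and CAR. All of the H3K27ac sum of Nr1i2 lay at the downstream end of the gene, at chr16:38247621-38250425, away from the listed start at 38294824. Nr1i2 H3K27ac was 94.4 and 74.2 tags after LPS against 65.5 and 66.1 untreated in Nur77 cells. Those of GFP cells were 178 and 154 after LPS against 127 and 112 untreated. It rose in GFP cells (log2 change 0.46 ± 0.14, adjusted p = 0.029), and the change in Nur77 cells was 0.34 ± 0.14, adjusted p = 0.073. An HA site in Nr1i2 at chr16:38285583-38286471 was called in the 3 LPS libraries, at 19.6, 16.2 and 28.5 tags, and in no untreated library, with no H3K27ac there. Nr1i3 Pol II was 55.1 and 95.2 tags after LPS against 92.3 and 112 untreated in Nur77 cells, and 56.3 and 78.6 after LPS against 129 and 158 untreated in GFP cells, in a stretch shared with Tomm40l, and its fall in GFP cells was called only with the block (log2 change -1.09 ± 0.33, adjusted p = 0.072, and 0.013 with the block). Vdr, the vitamin D receptor, had HA peaks without any called Pol II or H3K27ac. Its site in the span at chr15:97880173-97881189 had 104, 55.8 and 93.8 tags after LPS and 66.4, 39.3 and 71.0 untreated (log2 change 0.51 ± 0.34, adjusted p = 0.43, and 0.0076 with the block). A stronger one 37137 bp away at chr15:97816274-97817290, nearest to Hdac7, had 170.1, 72.4 and 133 tags after LPS and 183, 75.0 and 162 untreated, also with neither mark.

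Among steroid receptors, Nr3c1, the glucocorticoid receptor, lost Pol II in both lines. Pol II was 207 and 172 tags after LPS against 456 and 455 untreated in Nur77 cells. GFP cells had 240.2 and 267 after LPS against 407 and 406 untreated, and the replicates of each group lay close together. The fall was -1.26 ± 0.16, adjusted p = 0.0029 in Nur77 cells and -0.68 ± 0.16, adjusted p = 0.034 in GFP cells on the log2 scale. It kept its size per kb of called peak (-1.37 in Nur77 cells and -0.77 in GFP cells), and 97.4% of the sum lay in a single stretch that no other coding gene shares. The response differed between lines by -0.59 ± 0.22 on the log2 scale, which was not called. H3K27ac over Nr3c1 was 579.6 and 499 tags after LPS against 626 and 654 untreated in Nur77 cells, and 729 and 670.3 after LPS against 637 and 637 untreated in GFP cells, a fall in Nur77 cells (log2 change -0.25 ± 0.08, adjusted p = 0.036) and 0.13 ± 0.08, adjusted p = 0.21 in GFP cells. Its HA sum was 47.5, 80.3 and 93.0 tags after LPS and 79.6, 110.4 and 88.6 untreated, which overlap.

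Nr3c2, the mineralocorticoid receptor, had Pol II at 90.8 and 49.2 tags after LPS against 167 and 107 untreated in Nur77 cells. The GFP values were 132 and 95.5 after LPS against 192 and 120.0 untreated, and its fall in Nur77 cells was called only with the block (log2 change -0.99 ± 0.41, adjusted p = 0.12, and 0.0074 with the block). Esr1, estrogen receptor alpha, lost H3K27ac in both lines, with 31.6 and 35.1 tags after LPS against 67.9 and 61.4 untreated in Nur77 cells, and 28.4 and 26.8 after LPS against 67.9 and 87.8 untreated in GFP cells (log2 change -0.93 ± 0.16, adjusted p = 0.0023 in Nur77 cells, and -1.45 ± 0.16, adjusted p = 3.5e-04 in GFP cells). Within the gene an HA site at chr10:4786683-4787699 fell to 16.3, 12.6 and 17.9 tags after LPS, against 35.8, 39.3 and 34.8 untreated (log2 change -1.19 ± 0.22, adjusted p = 0.021). It was the only one of the 57 sites near members whose fall was called as fitted. H3K27ac over it was 12.8 and 17.4 tags after LPS against 55.6 and 46.9 untreated in Nur77 cells, and 17.2 and 17.9 after LPS against 57.2 and 62.3 untreated in GFP cells, and Pol II was 9.04 and 0 tags after LPS against 57.6 and 52.4 untreated in Nur77 cells. GFP cells gave 0 and 8.87 after LPS against 44.7 and 53.1 untreated. The other Esr1 sites did not move together: the one at chr10:4601455-4602494 had 16.3, 258 and 28.5 tags after LPS and 19.4, 130.1 and 29.7 untreated, high in replicate 2 of both conditions.

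**Figure D4:**
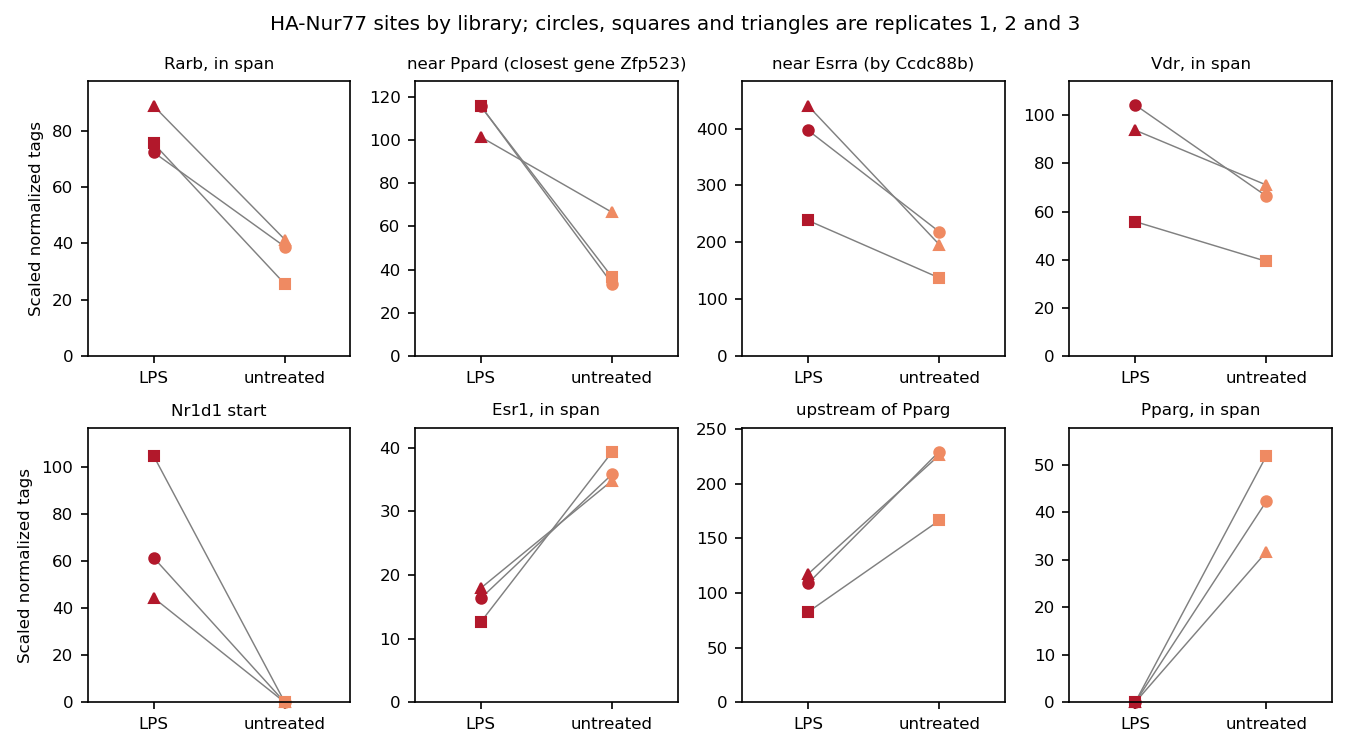
HA-Nur77 signal at 8 sites in or near nuclear receptor genes, in scaled normalized tags, after LPS (left of each panel) and untreated (right), with lines joining libraries of the same replicate number. The Rarb site and the site near Ppard rise after LPS, the Esr1 site falls, and the Nr1d1 start and the second Pparg site have called peaks in the LPS libraries alone or in the untreated libraries alone.

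Nr1d1 and Nr1d2 encode the REV-ERB repressors of the circadian clock, and Rora an activator that acts on the same elements. Pol II over Nr1d1 was 88.8 and 129.7 tags after LPS against 127 and 194 untreated in Nur77 cells. Values in GFP cells were 116 and 109 after LPS against 234 and 242 untreated, and the fall was called in GFP cells (log2 change -1.08 ± 0.27, adjusted p = 0.044) but not in Nur77 cells (-0.54 ± 0.27, adjusted p = 0.19). HA pointed the other way. The Nr1d1 HA sum was 138, 233 and 93.7 tags after LPS and 64.9, 104 and 53.5 untreated, called higher only with the block (log2 change 1.01 ± 0.38, adjusted p = 0.19, and 0.0059 with the block). Most of the difference lay in a second region at chr11:98775435-98776317, immediately upstream of the start whose promoter is printed above, with 61.4, 105 and 44.4 tags in the 3 LPS libraries and no peak in the untreated ones. H3K27ac over Nr1d1 was 226 and 231 tags after LPS against 204 and 215 untreated in Nur77 cells. Those of GFP cells were 176 and 159 after LPS against 192 and 201 untreated. It fell in GFP cells (log2 change -0.23 ± 0.08, adjusted p = 0.042), against 0.13 ± 0.08, adjusted p = 0.19 in Nur77 cells. Weighted by the share of each peak inside the span plus 1 kb, the GFP means were 144 after LPS against 150 untreated. The HA region in the gene at chr11:98773354-98774391 had 74.4, 128 and 56.5 tags after LPS and 62.3, 96.9 and 56.9 untreated.

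Nr1d2 had Pol II at 249.8 and 224 tags after LPS against 358 and 354 untreated in Nur77 cells, and 379.6 and 303 after LPS against 318 and 405 untreated in GFP cells, lower in Nur77 cells only with the block (log2 change -0.59 ± 0.19, adjusted p = 0.064, and 0.049 with the block). Its H3K27ac was 363 and 382 tags after LPS against 438 and 464 untreated in Nur77 cells. GFP cells had 476 and 446 after LPS against 501 and 524 untreated. That was a fall in Nur77 cells (log2 change -0.27 ± 0.06, adjusted p = 0.0099), with no call in GFP cells (-0.15 ± 0.06, adjusted p = 0.085). The HA region at chr14:18238156-18239172 near its start had 53.8, 74.0 and 47.4 tags after LPS and 34.1, 84.3 and 44.6 untreated. Rora had Pol II at 94.2 and 31.4 tags after LPS against 43.9 and 19.0 untreated in Nur77 cells. The GFP values were 185 and 122 after LPS against 106 and 48.3 untreated. Each LPS library was higher than the untreated one of the same number, and the rise was called with the block alone (adjusted p = 0.044 in Nur77 cells and 0.036 in GFP cells). The Pol II sign in GFP cells turned per kb of called peak, to -0.12. Rora HA was 43.6, 49.7 and 87.9 tags after LPS and 21.5, 22.7 and 41.9 untreated, called with the block (adjusted p = 0.01) and not as fitted (log2 change 1.05 ± 0.38, adjusted p = 0.17), and per kb of called peak the change was -0.0196. H3K27ac over Rora was 28.04 and 30.5 tags after LPS against 0 and 7.23 untreated in Nur77 cells, and 92.4 and 67.5 after LPS against 35.1 and 41.2 untreated in GFP cells, not tested because of the 0. Thra, the thyroid hormone receptor whose 3′ end meets that of Nr1d1, lost H3K27ac in Nur77 cells (log2 change -0.40 ± 0.11, adjusted p = 0.021). Its sums were 178 and 227 tags after LPS against 274 and 258 untreated in Nur77 cells. GFP cells gave 194 and 187 after LPS against 235 and 235 untreated. Per kb of called peak the sign in Nur77 cells turned to 0.28. Thra Pol II was 276 and 246 tags after LPS against 384 and 354 untreated in Nur77 cells. Values in GFP cells were 294 and 228 after LPS against 389.8 and 305 untreated. It was lower in Nur77 cells only with the block (log2 change -0.50 ± 0.20, adjusted p = 0.11, and 0.027 with the block), and per kb its sign turned as well, to 0.34.

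The estrogen-related receptors are orphan receptors known for control of mitochondrial genes. Esrra Pol II was 1518 and 3312 tags after LPS against 1134 and 1184 untreated in Nur77 cells. Those of GFP cells were 2993 and 3126 after LPS against 1198 and 1171 untreated, and the rise was called in GFP cells (log2 change 1.37 ± 0.34, adjusted p = 0.04) but not in Nur77 cells (0.95 ± 0.34, adjusted p = 0.082). The called stretch reached 32.0 kb after LPS against 15.3 kb untreated in GFP cells and ran over Prdx5 and Trmt112. Weighted by the share of each peak inside Esrra, the change in GFP cells was 0.28 (adjusted p = 0.39). Esrra H3K27ac was 765 and 767 tags after LPS against 816 and 842 untreated in Nur77 cells. GFP cells had 872 and 914 after LPS against 794 and 789 untreated. The rise was called in GFP cells (log2 change 0.17 ± 0.05, adjusted p = 0.024, which without the scaling factors turned to -0.23). In Nur77 cells the change was -0.11 ± 0.05, adjusted p = 0.088. The strongest HA site near any member lay 33349 bp from Esrra, at chr19:6876612-6877628 by Ccdc88b, with 397, 239 and 441 tags after LPS and 219, 137 and 196 untreated (log2 change 0.94 ± 0.31, adjusted p = 0.12, and 7.1e-09 with the block). H3K27ac there was 301 and 246 tags after LPS against 64.1 and 64.3 untreated in Nur77 cells. The GFP values were 324 and 280.2 after LPS against 59.6 and 56.0 untreated. Pol II there was 364 and 240.5 tags after LPS against 0 and 11.7 untreated in Nur77 cells, and 299 and 305 after LPS against 11.1 and 19.2 untreated in GFP cells, so that both marks were higher after LPS in each line. Esrrb had Pol II in the GFP LPS libraries alone, at 57.3 and 18.8 tags. Its H3K27ac was low and called in the 4 LPS libraries of both lines alone, from 7.58 to 8.34 tags in Nur77 cells and 12.1 to 15.6 in GFP cells. An HA site in Esrrb at chr12:86401606-86402537 was called in the 3 LPS libraries and 1 untreated one. Esrrg was low throughout, at 10.5 to 37.6 tags of Pol II.

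The remaining members are orphan receptors and Hnf4a. Nr2c1 and Nr2c2, the testicular receptors TR2 and TR4, had no called change in Pol II or H3K27ac, and Nr2c2 Pol II was 401 and 396 tags after LPS against 450.1 and 563 untreated in Nur77 cells. GFP cells gave 343 and 428 after LPS against 424 and 554 untreated. An HA site whose centre lay 913 bp from the listed Nr2c2 start, at chr6:92091012-92092028, had 154, 58.6 and 174 tags after LPS and 166, 93.6 and 179 untreated. A second Nr2c2 site, at chr6:92126757-92127773, had 29.9, 38.5 and 21.1 tags after LPS and 53.5, 66.9 and 54.2 untreated, lower only with the block (log2 change -0.97 ± 0.29, adjusted p = 0.085, and 5.0e-05 with the block). Nr6a1, the germ cell nuclear factor, had the most HA per kb of called peak of any member. Its HA sum was 375, 206 and 402 tags after LPS and 496, 314 and 549.7 untreated, called lower only with the block (log2 change -0.49 ± 0.29, adjusted p = 0.42, and 0.016 with the block), and per kb of called peak the sign turned to 0.35. The site at chr2:38776989-38778005 had 230.4, 108 and 234 tags after LPS and 217, 140.3 and 247 untreated, and the next, at chr2:38866377-38867393, had 139, 61.9 and 143 after LPS and 177, 92.8 and 225 untreated, called lower only with the block (adjusted p = 0.0011), and overlapped a region called in input. Nr6a1 Pol II was 282 and 231 tags after LPS against 449 and 579 untreated in Nur77 cells, and 215 and 217 after LPS against 333 and 618 untreated in GFP cells, lower with the block alone in both lines (adjusted p = 0.037 in Nur77 cells and 0.042 in GFP cells, against 0.054 and 0.064 as fitted), and in Nur77 cells the change was 0.0067 once peaks over input regions were left out.

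Nr2f6, the orphan receptor EAR2, had sums that moved with the stretch called. One untreated Nur77 H3K27ac library had a stretch over Use1 and Ocel1, and the Nur77 values were 180.3 and 181 tags after LPS, against 837 and 224 untreated. In Pol II a single Nur77 LPS library had 227 tags, where the other 7 had 919 to 1383. Neither gave a call. Hnf4a, a liver and gut factor, lost H3K27ac in both lines, with 22.7 and 19.1 tags after LPS against 69.8 and 64.9 untreated in Nur77 cells, and 52.3 and 43.4 after LPS against 92.8 and 88.4 untreated in GFP cells (log2 change -1.64 ± 0.14, adjusted p = 1.4e-04 in Nur77 cells, and -0.91 ± 0.14, adjusted p = 0.0019 in GFP cells). Its Pol II was 0 and 7.53 tags after LPS against 89.1 and 141 untreated in Nur77 cells, and 21.0 and 22.9 after LPS against 82.8 and 132 untreated in GFP cells, not tested because of the 0. Nr0b2, the receptor SHP that lacks a DNA-binding domain, had Pol II at 16.8 and 13.5 tags after LPS against 81.6 and 83.8 untreated in Nur77 cells. Values in GFP cells were 0 and 0 after LPS against 11.6 and 29.3 untreated. Its H3K27ac was 16.1 and 14.9 tags after LPS against 52.7 and 59.2 untreated in Nur77 cells. Those of GFP cells were 0 and 0 after LPS against 23.9 and 22.0 untreated. Both were lower after LPS in each line, and both were highest in untreated Nur77 cells. Other strong HA sites lay near silent members: one at chr2:38652913-38653929 by Psmb7, 38727 bp from Nr5a1, had 122, 202 and 86.5 tags after LPS and 219, 216 and 118 untreated, lower only with the block (adjusted p = 0.53 as fitted, and 0.0046 with the block). Another, at chr2:38717139-38718155 between Nr5a1 and Nr6a1, had 106, 61.6 and 117 after LPS and 116, 82.3 and 145 untreated.

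Within 50 kb of members lay 194 HA regions, of which 57 were called in all 6 libraries and 28 of these over a member's span plus 1 kb. 34 members had a region within 50 kb, and Nr2e3, Nr2f1, Nr2f2, Nr5a2, Nr0b1, Rxrg, Thrb, Pgr and Hnf4g had none. Of the 57 sites, 44 (77.2%) had H3K27ac in all 8 libraries, against 77.3% of all 11234 such regions, and 29 (50.9%) had Pol II in all 8, against 51.3%. After LPS 2 of the 57 rose and 1 fell, where 3.28% of all regions rose and 1.35% fell, 4.64% in all, and 10 had an unadjusted p under 0.05. With replicate number as a block 9 rose and 10 fell, where 40.4% of all regions were called. No site passed when the scaling factors were left out, or when both replicate 3 libraries were left out without the block, and leaving out single libraries also ended each of the 3 calls. Without the scaling factors 6 of all 11234 regions were called. 6 regions were called in all LPS libraries and no untreated one, and 2 in all untreated libraries and no LPS one. Those after LPS lay at the Nr1d1 start, in Nr1i2, near Nr3c1, near Esr2, near Csf3 beside Thra, and at chr19:6870543-6871419 by Ccdc88b, where the values were 132, 113 and 114 tags. The other untreated one, at chr19:6868986-6870009, lay close by the last and had 27.1, 86.4 and 64.6 tags. 2 more of the 12 strongest sites, at chr1:171184043-171185059 by Pcp4l1 (127, 119 and 104 tags after LPS, 139, 121 and 94.8 untreated) and chr11:98710253-98711269 by Med24 (115, 95.5 and 109 after LPS, 87.0, 78.3 and 115 untreated), overlapped between conditions and were not called.

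The comparison of Nur77 cells with GFP cells asks what induced HA-Nur77 goes with, within the limit that each line is its own isolate. Pol II gave no call among 23 members with limma, and none with the block. After LPS 0.294% of all genes were higher and 0.25% lower in Nur77 cells, 0.544% in all, and 5 members had an unadjusted p under 0.05. Untreated 0.102% were higher and 0.0704% lower, 0.173% in all, and 2 members had an unadjusted p under 0.05. H3K27ac was higher over 3 members and lower over 1 in untreated cells, where 13% of all genes were higher and 11.9% lower, 25% in all. It was higher over 3 and lower over 6 after LPS, where 14.7% of all genes were higher and 17.6% lower, 32.3% in all. Rxra was higher in Nur77 cells in both conditions (log2 difference 0.69 ± 0.06, adjusted p = 3.4e-04 after LPS, and 0.53 ± 0.06, adjusted p = 0.0011 untreated), with the values given above for the 4 groups showing no overlap within a condition. Ppard was higher too, at 1207 and 1065 tags in Nur77 cells against 742 and 697 in GFP cells after LPS, and 1082 and 1140.5 against 624 and 591 untreated (log2 difference 0.66 ± 0.08, adjusted p = 0.0012 after LPS, and 0.87 ± 0.08, adjusted p = 4.6e-04 untreated). Pol II over the same pair of genes pointed the same way without a call: Ppard had 769.7 and 656 tags in Nur77 cells against 280.1 and 366 in GFP cells after LPS, and 417 and 525 against 139 and 313 untreated. Rxra Pol II was 309.8 and 259 in Nur77 cells against 135 and 177 in GFP cells after LPS, and 327 and 280.4 against 185 and 231 untreated.

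Markers moved between the lines too. Over 10 macrophage markers H3K27ac was higher over 1 and lower over 5 in Nur77 cells after LPS, and higher over 1 and lower over 3 untreated, with summed levels of 15656 to 20732 tags in Nur77 cells against 16682 to 17869 in GFP cells after LPS and 13192 to 13326 against 13650.5 to 13913 untreated. Gfap was higher in Nur77 cells (log2 difference 0.97 ± 0.09, adjusted p = 4.0e-04 after LPS, and 0.80 ± 0.09, adjusted p = 0.001 untreated). The 9 markers of other cell types summed to 185 to 191 tags in Nur77 cells against 89.3 to 111 in GFP cells after LPS and 133 to 138 against 84.0 to 85.8 untreated, and 7 of them were at 0. Their part in the differences of members was not tested.

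Nr1i2 was lower in Nur77 cells in both conditions (log2 difference -0.97 ± 0.14, adjusted p = 0.0028 after LPS, and -0.85 ± 0.14, adjusted p = 0.0056 untreated). Hnf4a was lower after LPS (-1.16 ± 0.14, adjusted p = 0.0016), and smaller differences after LPS were called for Nr1d1 (0.45), Nr1d2 (-0.31), Nr3c1 (-0.38), Esrra (-0.22) and Nr1h3 (-0.22), all log2. The difference of Nr1d2 turned to 0.0703 per kb of called peak. Rarg was higher in untreated Nur77 cells (0.35 ± 0.07, adjusted p = 0.0093), with a sign that turned to -0.20 per kb of called peak. Per kb, 1 of the 9 differences after LPS and 1 of the 4 untreated ones remained called. The comparisons between lines share libraries with those of LPS. The LPS response itself was not called as different between lines for any member in Pol II or H3K27ac. In Pol II 0.0256% of all genes were called with a higher response and 0.0512% with a lower one in Nur77 cells, 0.0768% in all, and 1 member had an unadjusted p under 0.05. In H3K27ac 0.241% were higher and 0.761% lower, 1% in all, and 6 members had an unadjusted p under 0.05. Rarg had a difference of -0.42 ± 0.09, adjusted p = 0.11.

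**Figure D5:**
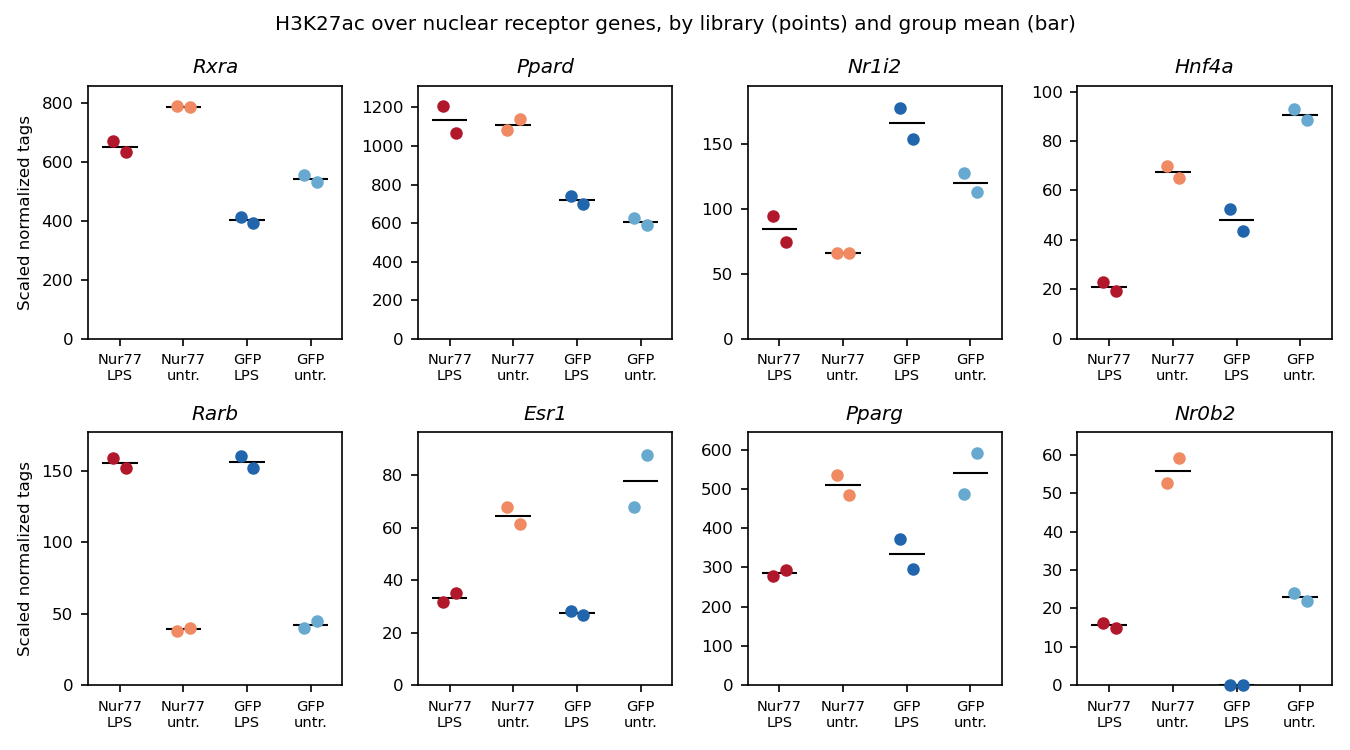
H3K27ac over 8 nuclear receptor genes in scaled normalized tags, with each library as a point and the mean of the 2 libraries as a bar, for Nur77 cells with LPS, Nur77 cells untreated, GFP cells with LPS and GFP cells untreated. Rxra and Ppard are higher in Nur77 than in GFP cells in both conditions, Nr1i2 is lower, and Rarb follows LPS at like levels in both lines.

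Genes that act with or downstream of these receptors were followed through lists of co-regulators and known targets. Their counts are to be read against 58% of all genes called for H3K27ac in Nur77 cells and 53.9% in GFP cells, and 26.5% and 15% for Pol II. Of 6 liver X receptor targets tested for H3K27ac, 5 fell and 1 rose in Nur77 cells after LPS and 4 fell in GFP cells, with a median log2 change of -0.51 in Nur77 cells and -0.55 in GFP cells, against 0.01 over all genes in both. Srebf1, the activator of fatty acid synthesis genes, changed by -0.92 ± 0.06, adjusted p = 4.0e-05 in Nur77 cells and -0.68 ± 0.06, adjusted p = 1.3e-04 in GFP cells on the log2 scale. In Pol II 3 of 6 fell in Nur77 cells and 2 in GFP cells, with Scd2, a fatty acid desaturase, at -1.82 ± 0.42, adjusted p = 0.022 in Nur77 cells and -2.18 ± 0.42, adjusted p = 0.019 in GFP cells, and the cholesterol exporter Abcg1 at -1.17 ± 0.27, adjusted p = 0.022 and -1.33 ± 0.27, adjusted p = 0.022 likewise. Of 6 PPAR targets tested for H3K27ac, 4 rose and 1 fell in each line, with medians of 0.38 in Nur77 cells and 0.30 in GFP cells. Those that rose include Plin2, which coats lipid droplets (0.67 ± 0.05, adjusted p = 9.7e-05 in Nur77 cells, 0.30 ± 0.05, adjusted p = 0.0034 in GFP cells), and the fatty acid carrier Fabp4 (1.82 ± 0.22, adjusted p = 5.3e-04 in Nur77 cells, 1.11 ± 0.22, adjusted p = 0.0051 in GFP cells). Pparg itself fell.

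Of 6 glucocorticoid receptor targets tested for H3K27ac, 4 fell and 1 rose in Nur77 cells and 2 fell and 1 rose in GFP cells, with medians of -0.46 and -0.22. Fkbp5, a chaperone of that receptor, fell (-0.47 ± 0.05, adjusted p = 4.0e-04 in Nur77 cells, -0.41 ± 0.05, adjusted p = 8.1e-04 in GFP cells), while the phosphatase gene Dusp1 rose (0.41 ± 0.11, adjusted p = 0.014 in Nur77 cells, 0.57 ± 0.11, adjusted p = 0.0038 in GFP cells). In Pol II, 1 of 5 glucocorticoid receptor targets tested rose in Nur77 cells, none fell, and none was called in GFP cells, with medians of -0.47 and 0.02. Of 10 clock genes 2 rose and 4 fell in H3K27ac in Nur77 cells, and 3 rose and 4 fell in GFP cells, with medians of -0.05 and 0.08. Dbp, an output activator of the clock, changed by -1.15 ± 0.08, adjusted p = 4.8e-05 in Nur77 cells and -1.26 ± 0.08, adjusted p = 3.4e-05 in GFP cells, and Nfil3, a repressor at the same elements, by 1.58 ± 0.17, adjusted p = 3.5e-04 and 1.51 ± 0.17, adjusted p = 4.7e-04 in the 2 lines. Per2, a core clock repressor, was the one list gene whose H3K27ac response was called as different between the lines (difference -1.96 ± 0.27, adjusted p = 0.028), with changes of -2.61 in Nur77 cells and -0.65 in GFP cells.

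Among 8 genes of the co-repressor complex, H3K27ac over Tbl1x, a subunit that links it to chromatin, rose in both lines (0.60 ± 0.08, adjusted p = 7.3e-04 in Nur77 cells, 0.36 ± 0.08, adjusted p = 0.0072 in GFP cells), and in Nur77 cells 2 members fell, with list medians of 0.10 in Nur77 cells and -0.03 in GFP cells. Of 11 co-activators 3 rose and 5 fell in Nur77 cells, and 3 rose and 2 fell in GFP cells, with medians of -0.12 and -0.05. Between the lines, Ppargc1a, the co-activator PGC-1-alpha, was lower in Nur77 cells at -2.02 ± 0.07, adjusted p = 1.6e-05 after LPS and -2.20 ± 0.07, adjusted p = 1.8e-05 untreated, and Ncoa1, a steroid receptor co-activator, at -1.58 ± 0.12, adjusted p = 2.7e-04 after LPS and -1.03 ± 0.12, adjusted p = 0.0016 untreated. Of the 2 retinoid-handling genes tested, Rdh10, which makes retinal from retinol, rose in Pol II in both lines (0.69 ± 0.18, adjusted p = 0.034 in Nur77 cells, 0.88 ± 0.18, adjusted p = 0.024 in GFP cells). In H3K27ac, of 2 tested, none was called after LPS in Nur77 cells and 1 rose in GFP cells, with medians of 0.07 and 0.13. After LPS 2 were lower in Nur77 than in GFP cells, and untreated 1 was lower, where 32.3% and 25% of all genes were called.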

How the data were processed

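Peak lists of 26 libraries were used, 4 of them input. The submitters' processing notes name HISAT2 2.1.0 for alignment, the build mm10 and HOMER for peaks. Per the file headers, peaks were called in each library without input, and the signal of a peak is its deposited normalized tag count per 10 M mapped tags. The header of HA untreated replicate 3 alone among HA libraries names tags not marked as filtered. Of the H3K27ac lists, 5 were made with local filtering switched off, and 3 were not (GFP LPS replicate 1 and replicate 1 of both untreated lines).

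Signals were summed over peaks that overlap a RefSeq gene span (GRCm38.p6, the build named mm10) plus 1 kb. HA regions were merged at 1 bp of overlap and assigned within 50 kb. Libraries were scaled by a trimmed mean of ratios (30% trimmed by ratio, 5% by level). Factors spanned 0.607 to 1.31 (HA genes), 0.572 to 1.33 (HA regions), 0.867 to 1.20 (Pol II) and 0.806 to 1.19 (H3K27ac). limma 3.58.1 in R 4.3.3 was fitted with a trend to log2 of the scaled sum plus 1, two-sided, over features with a peak in every library, with Benjamini-Hochberg adjustment at 0.05. A fold change on this scale understates the change of low genes. The fit was tested on simulated data.

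Deviations from group means of libraries with the same replicate number correlated at 0.38 to 0.65 (HA genes), 0.48 to 0.83 (HA regions), 0.20 to 0.45 (Pol II) and -0.02 to 0.12 (H3K27ac). The numbers were therefore taken to pair HA and Pol II libraries, although the labels name no shared batch. In each Pol II group replicate 1 had fewer mapped tags than replicate 2, and the part of depth in the correlation was not tested. Values with the block are given where they change the call of a member or site named with its values.

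Members and lists were chosen with earlier results of these data known. A further marker gene of other cell types is not reported here. Values in every library are given for members called in a comparison, the 5 highest sums and those with HA sites, with coordinates for the 12 strongest. Further sites were named after their values were seen, and tags of marks over HA sites are descriptions. Related genes are named from the 3 smallest p per list where they passed. Scaling, pseudocount, filter, flank, peak share, width, input regions, replicate block and left-out libraries were varied.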

Additional observations from a re-analysis of the deposited data

How the results depend on the processing

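The 12 counts of members or sites called were recomputed under 216 alternatives and stayed within 1.5 times in 175. With a peak required in all libraries of 1 group instead of in every library, the counts were 1 for HA over genes, 12 for HA sites, 6 for Pol II after LPS in Nur77 cells, 2 for Pol II between the lines after LPS and 2 for the H3K27ac response between the lines. That filter lets features in through the group where their peaks were called, and then compares that group with the others. Higher counts follow in part from the filter itself, and nothing is drawn from them. Without scaling factors they were 8 for Pol II in Nur77 cells and 0 for HA sites. Per kb of called peak they were 1 for Pol II in GFP cells, 5 for H3K27ac in Nur77 cells, and 1 each for H3K27ac between the lines untreated and after LPS. By the share of each peak inside the span Pol II gave 3 in GFP cells and 6 in Nur77 cells, without peaks over input regions it gave 5 in Nur77 cells, and without the flank 1 member was called for the H3K27ac response between the lines. With the compared groups alone in the fit Pol II gave 3 in GFP cells, and H3K27ac between the untreated lines gave 7. Without both HA replicate 3 libraries 0 sites were called, and with the block as well 18 sites and 3 genes. The cause was not tested.

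With the replicate block the counts were 5 for HA over genes, 19 for HA sites, 9 for Pol II in GFP cells and 10 for Pol II in Nur77 cells, and it changed no other count by over 1.5 times. H3K27ac numbers did not pair, and there the block gave 11 members in GFP cells and 13 in Nur77 cells, and ended only the call of Nr1d1 in GFP cells.

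Of 1153 alternatives for single members and sites, 947 kept direction and call, 149 lost the call, 41 gained it and 16 changed sign. Per kb of called peak the sign changed for Nr6a1 HA (0.35), Rora HA (-0.0196), Rora Pol II in GFP cells (-0.12), Thra Pol II in Nur77 cells (0.34), H3K27ac in Nur77 cells of Rara (0.0704), Rxra (0.15) and Thra (0.28), Rarg between untreated lines (-0.20) and Nr1d2 between lines after LPS (0.0703). Without peaks over input regions it changed for Nr6a1 Pol II in Nur77 cells (0.0067) and for H3K27ac of Nr1h3 in Nur77 cells (-0.10) and GFP cells (-0.23) and of Ppard in GFP cells (-0.34). Without scaling factors it changed for H3K27ac of Nr1h3 in Nur77 cells (-0.20) and of Esrra (-0.23) and Ppard (-0.16) in GFP cells.

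With 1 library left out, the counts ran from 0 to 6 for HA sites, 0 to 8 for Pol II in GFP cells, 2 to 5 for Pol II in Nur77 cells, 0 to 1 for Pol II between lines after LPS, 8 to 14 for H3K27ac in GFP cells, 8 to 13 in Nur77 cells, 6 to 9 between lines after LPS, 4 to 5 untreated and 0 to 1 for the H3K27ac response, where the lone library is assumed to vary like the other groups. Pol II in GFP cells gave 8 without Nur77 LPS replicate 1 and 0 without GFP LPS replicate 1 or untreated replicate 2, and HA sites gave 6 without LPS replicate 2 and 0 without replicate 1 of either condition. Of 48 called single results, 23 stayed called whichever library was left out and 25 did not. Calls lost, with the library left out by condition and replicate number and the log2 values without it, were Esrra H3K27ac (LPS, GFP) without GFP LPS 1 and 2, GFP untreated 1 and 2 (0.13 to 0.18), Esrra H3K27ac (lines, after LPS) without GFP LPS 2, Nur77 LPS 1 (-0.21 to -0.19), Esrra Pol II (LPS, GFP) without GFP LPS 1 and 2, GFP untreated 1 and 2, Nur77 untreated 1 and 2 (1.34 to 1.41), the Esr1 HA site without LPS 1, untreated 1 and 3 (-1.24 to -1.21), the Rarb HA site without LPS 1 and 3, untreated 1 and 2 and 3 (0.94 to 1.29). The call was also lost for the HA site near Ppard without LPS 1 and 3, untreated 1 and 2 (1.14 to 1.40), Nr1d1 H3K27ac (LPS, GFP) without GFP LPS 2, GFP untreated 1 and 2, Nur77 untreated 1 and 2 (-0.26 to -0.16), Nr1d1 Pol II (LPS, GFP) without GFP LPS 1 and 2, GFP untreated 1 and 2 (-1.11 to -1.04), Nr1d2 H3K27ac (LPS, Nur77) without Nur77 LPS 1, Nur77 untreated 2 (-0.24 to -0.23), Nr1d2 H3K27ac (lines, after LPS) without GFP LPS 1, Nur77 LPS 1 (-0.26 to -0.24). Further losses were Nr1h3 H3K27ac (LPS, Nur77) without Nur77 LPS 1 and 2, Nur77 untreated 1 (0.20 to 0.22), Nr1h3 H3K27ac (lines, after LPS) without GFP LPS 1 and 2, Nur77 LPS 1 and 2, Nur77 untreated 1 and 2 (-0.27 to -0.17), Nr1h4 H3K27ac (LPS, GFP) without GFP LPS 1, GFP untreated 1 and 2 (-0.69 to -0.43), Nr1h4 H3K27ac (LPS, Nur77) without Nur77 untreated 2 (-0.73), Nr1h4 Pol II (LPS, GFP) without GFP LPS 1, GFP untreated 1 and 2 (-1.93 to -1.34). It was lost too for Nr1h4 Pol II (LPS, Nur77) without Nur77 untreated 1 (-1.73), Nr1i2 H3K27ac (LPS, GFP) without GFP LPS 1, GFP untreated 1 and 2 (0.33 to 0.55), Nr3c1 H3K27ac (LPS, Nur77) without GFP untreated 1 and 2, Nur77 LPS 2, Nur77 untreated 1 and 2 (-0.28 to -0.15), Nr3c1 H3K27ac (lines, after LPS) without GFP LPS 1, Nur77 LPS 2 (-0.30 to -0.26), Nr3c1 Pol II (LPS, GFP) without GFP LPS 1 and 2, GFP untreated 1 and 2, Nur77 untreated 1 and 2 (-0.76 to -0.59). The last were Ppard H3K27ac (LPS, GFP) without GFP LPS 1, GFP untreated 1 and 2 (0.17 to 0.28), Pparg Pol II (LPS, GFP) without GFP LPS 1 and 2, GFP untreated 1 and 2 (-1.61 to -1.32), Rara H3K27ac (LPS, Nur77) without Nur77 LPS 1, Nur77 untreated 1 and 2 (-0.29 to -0.24), Rarg H3K27ac (lines, untreated) without GFP untreated 2, Nur77 untreated 1 and 2 (0.32 to 0.35), Thra H3K27ac (LPS, Nur77) without Nur77 LPS 1, Nur77 untreated 1 and 2 (-0.45 to -0.23). Depth may limit what a 0 means, but the number of called peaks did not simply follow it. HA untreated replicate 1 had 6.41 M tags and 19900 peaks, and untreated replicate 2 had 10.2 M tags and 19684 peaks.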
